A study of Mus musculus with 3 samples.

Results

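The peroxiredoxins Prdx1 to Prdx6, thioredoxin (Txn1), thioredoxin reductase 1 (Txnrd1), sulfiredoxin (Srxn1) and heme oxygenase 1 (Hmox1) were followed in mouse pancreatic islets. They were taken by name, as a list of 10 of the 31053 genes in the count table, and all 10 were present. Single-cell RNA had been measured with droplet-based 3′ chemistry from male C57Bl6/J mice, retired breeders 7 to 8 months old. There were 3 libraries, 1 for each group. The recovered library came from mice that had carried pumps with S961, an antagonist of the insulin receptor, and had then had the pumps taken out. The S961 library came from mice with S961 in the pump, at a labelled dose of 20 nM a week over 2 weeks. The labels give the recovered mice the same dose and duration of S961. The control library came from mice whose pumps held no S961. All islets were kept in culture overnight before dissociation, and the labels give neither the number of mice behind a library nor the length of the recovery. With 1 library for each group, a difference between groups cannot be told apart from a difference between libraries, so no test was made and every interval covers counting error only.

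Peroxiredoxins are thiol enzymes that reduce hydrogen peroxide and organic peroxides. Most of them are returned to the reduced state by thioredoxin, which thioredoxin reductase recharges with electrons from NADPH, and sulfiredoxin repairs peroxiredoxins whose reactive cysteine has been over-oxidised. The transcription factor NRF2 (Nfe2l2), which KEAP1 marks for degradation in unstressed cells, binds antioxidant response elements with small MAF partners, and Txnrd1, Srxn1, Prdx1 and Hmox1 are well-known targets of it. Rodent beta cells are known for low levels of catalase and of the classical glutathione peroxidases.

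The promoter windows of these genes, from 250 bases before to 50 after each start in RefSeq on GRCm38.p6, were searched on both strands for the core of the antioxidant response element, written TGACNNNGC, and for a MAF-type form, TGANTCAGC. An entry existed for 8 of the 10 genes, all but Prdx6 and Hmox1. TGACNNNGC was found in Prdx1, Srxn1 and Txnrd1, 3 of those 8, and in 12.4% of all 32851 windows. TGANTCAGC was found in Prdx1 and Srxn1, and in 1.19% of all windows. The matches are shown with their surroundings because Txnrd1 is a gene whose level differed between the libraries, and Prdx1 and Srxn1 are genes with a match to the rarer form. Capitals mark the match, as read on the plus strand, along which all of these genes run. The matches of Prdx1 and Txnrd1 are to the other strand, and in Prdx1 both forms match the same letters. The matches end 124 bases before the start of Prdx1, 36 before that of Srxn1 and 83 before 1 of the starts of Txnrd1. The TGACNNNGC match of Srxn1 is not shown, because it lies after the start or too near it for its surroundings to end before the start. A match is a description of letters, not a site of binding.
Prdx1 (chr4:116685446-116685494, plus strand): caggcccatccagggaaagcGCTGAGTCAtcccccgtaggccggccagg
Srxn1 (chr2:152105459-152105507, plus strand): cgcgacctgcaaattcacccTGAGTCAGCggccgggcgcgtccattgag
Txnrd1 (chr10:82859094-82859142, plus strand): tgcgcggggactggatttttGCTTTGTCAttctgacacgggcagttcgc

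After filtering, 3513 recovered, 3430 S961 and 4267 control cells remained, from libraries of 40102058, 47651767 and 38265969 unique molecular identifiers (UMIs). Cells were clustered and named from marker genes. Beta-like cells, 3 insulin-rich clusters of which 1 had a beta marker, Ucn3, among its 10 leading genes, numbered 2038 in the recovered library, 1128 in the S961 library and 2884 in the control library. Their median depth was 10387 UMIs in recovered, 17199.5 in S961 and 7541.5 in control cells, and their median mitochondrial share was 7.29%, 5.03% and 6.93% in the same order. The libraries stood apart in quality before filtering, with a median mitochondrial share of barcodes of 23.1% in recovered, 5.82% in S961 and 26.4% in control. RNA of other cells was present in beta-like cells. The 9 alpha-cell markers summed to 1095 CPM (counts scaled to a total of 1000000) in recovered, 1651 in S961 and 939.6 in control, with all 9 detected in each. The acinar markers summed to 173, 182 and 59.5 CPM, with all 11 detected, and the stellate markers to 2.15, 5.36 and 1.20 CPM, with Pdgfra, Acta2 and Lum at 0 in all libraries. In all, 51 barcode sequences occurred in 2 libraries, 13 of them among the analysed cells of both.

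Levels are given in CPM, the UMIs of a gene summed over the cells of one class in one library and scaled to all UMIs of those cells. They are compared for 1 gene across libraries or classes and not between genes. A gene is called higher or lower where the log2 ratio of its CPM was at least 0.322 in size, with at least 50 UMIs over both libraries, and this is the threshold meant below. The comparison of S961 with control and that of recovered with S961 share the S961 library, so their directions are not independent. In beta-like cells, Prdx4 and Txnrd1 were higher in S961 than in control and lower in recovered than in S961, while the other 8 genes stayed within the threshold in both comparisons.

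The 2 called in S961 over control are 2 of 10, beside 17.2% of all 11571 genes tested that were higher there, and none of the 10 was lower, beside 9.72% of all genes. In recovered over S961, 0 of the 10 were higher, beside 10.3% of all genes, and 2 were lower, beside 10.7%. In recovered over control, 0 were higher, beside 10.9% of all genes, and 0 were lower, beside 4.33%. The median log2 ratio of the 10 genes was 0.05 for S961 over control, with 0.02 over all genes, −0.13 for recovered over S961, with 0.02, and −0.04 for recovered over control, with 0.04. The values of single genes carry the description that follows.

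**Figure D1:**
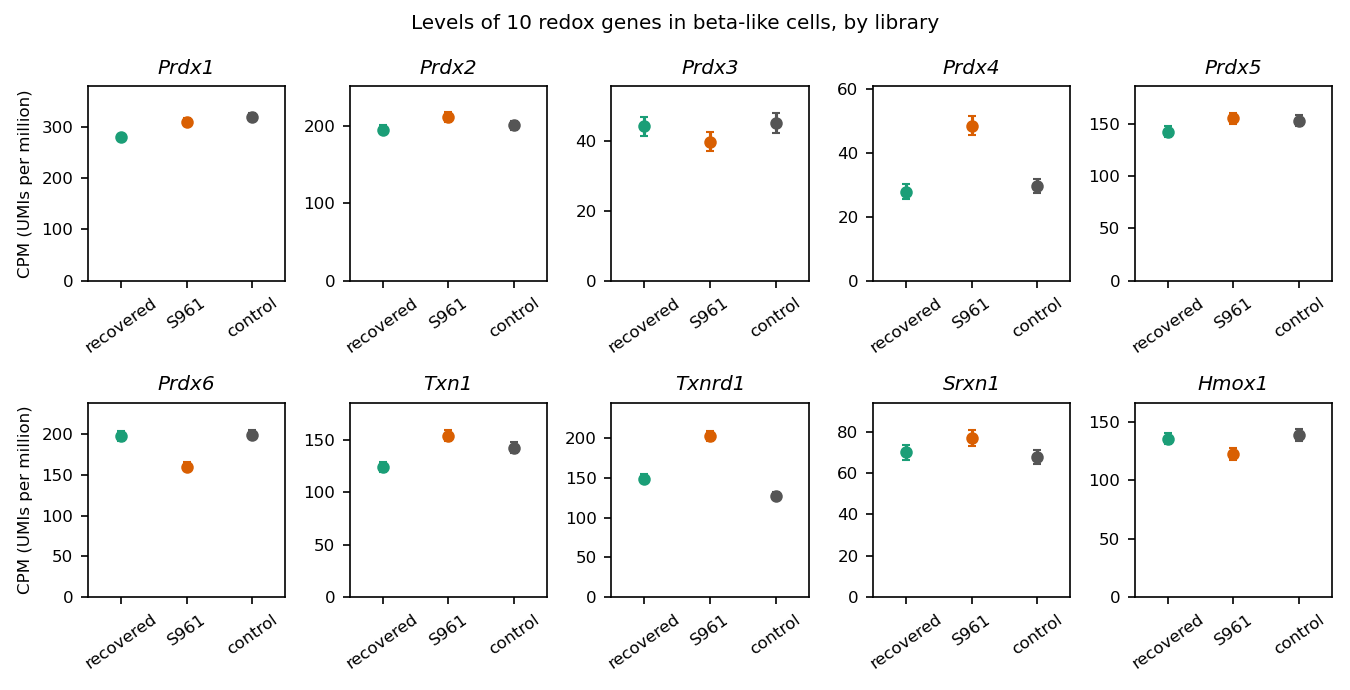
Levels of the 10 genes in beta-like cells, in CPM (vertical axes, each starting at 0), for the recovered, S961 and control libraries from left to right; bars are exact Poisson 95% intervals, which cover counting error only. Prdx4 and Txnrd1 are highest in S961, at 48.6 and 203 CPM, Prdx6 is lowest there, at 159.9 CPM, and the other genes lie closer together.

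Prdx1 and Prdx2 are the cytosolic peroxiredoxins that use a pair of cysteines. Prdx1 stood at 279.9 CPM in recovered, 309 CPM in S961 and 320.3 CPM in control beta-like cells. The log2 ratio was −0.05 for S961 over control and −0.19 (interval −0.24 to −0.15) for recovered over control, so that recovered was the lowest library without reaching the threshold. Prdx2 stood at 195 CPM in recovered, 211 CPM in S961 and 201 CPM in control, with log2 ratios of 0.07 for S961 over control and −0.04 for recovered over control. Both genes carry an uncertainty of counting. Prdx1 transcripts end in sequence that 2 processed pseudogenes, Gm21399 and Gm7204, share at 98.5% and 97.2% identity over 400 bases. Prdx2 shares 96.8% with Tdpx-ps1, and its gene (chromosome 8, 84969587 to 84974834, plus strand, GENCODE M21 on GRCm38) overlaps the end of Junb on the opposite strand by annotation. These pseudogenes are not in the count table, so no UMIs were counted to them there, while Junb is in it. Whether reads were dropped, or counted to Junb, is not given in the sources used here. The other 8 genes had no such near copy.

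Prdx3, the mitochondrial peroxiredoxin, stood at 44.3 CPM in recovered, 39.8 CPM in S961 and 45.2 CPM in control beta-like cells. It was lowest in S961, by a log2 ratio of −0.18 (−0.32 to −0.05) over control, which is within the threshold. Prdx5, found in mitochondria, peroxisomes and cytosol, stood at 142 CPM in recovered, 155 CPM in S961 and 153 CPM in control, and its interval for S961 over control, −0.05 to 0.09, holds 0.

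Prdx4 is the peroxiredoxin of the endoplasmic reticulum, where it uses hydrogen peroxide to help form disulfide bonds (ENSMUSG00000025289.15, chromosome X, 155323918 to 155340754, minus strand). In beta-like cells it stood at 27.8 CPM in recovered (621 UMIs), 48.6 CPM in S961 (979 UMIs) and 29.5 CPM in control (664 UMIs). S961 was the high library, and the intervals of recovered, 25.7 to 30.1 CPM, and control, 27.3 to 31.8 CPM, overlapped. The log2 ratio was 0.72 (0.58 to 0.86) for S961 over control, −0.80 (−0.95 to −0.66) for recovered over S961 and −0.08 (−0.24 to 0.08) for recovered over control. Alpha-like cells held more Prdx4 than beta-like cells, and the alpha markers in beta-like cells were also highest in S961. When alpha, acinar and stellate RNA was subtracted by its markers, the ratio for S961 over control was 0.73.

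S961 was also the library with the deepest beta-like cells and the lowest mitochondrial share. With each beta-like cell thinned to 5000 UMIs, which left out 145 recovered, 85 S961 and 529 control cells, Prdx4 was seen in 11.6% of recovered, 18.5% of S961 and 13.3% of control cells. Unthinned, the shares were 22.9%, 45.6% and 19.4%. Among cells with 4 to 7% mitochondrial UMIs, the level was 35.3 CPM in recovered, 49.1 CPM in S961 and 30.6 CPM in control. Above 10%, it was 17.0 CPM in recovered, 55.2 CPM in S961 and 25.7 CPM in control. S961 was thus the highest library in both ranges, while Prdx4 in recovered and in control cells was lower in the range with more mitochondrial RNA. Recovered stood above control in the first of these ranges and below it in the second.

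Prdx6, the peroxiredoxin with a single reactive cysteine, which also acts on phospholipids, was the one gene lowest in S961 at close to the threshold. It stood at 197 CPM in recovered, 159.9 CPM in S961 and 199 CPM in control beta-like cells. The log2 ratio was −0.316 (−0.38 to −0.25) for S961 over control and 0.303 (0.24 to 0.37) for recovered over S961, both just short of the threshold. A call of lower in S961 over control was made under 5 of the 16 other ways of processing, with values of −0.40 to −0.18 over all 16.

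Txn1, cytosolic thioredoxin, stood at 124 CPM in recovered, 154 CPM in S961 and 143 CPM in control beta-like cells. Its log2 ratio was 0.11 (0.04 to 0.18) for S961 over control and −0.31 (−0.38 to −0.23) for recovered over S961, just short of the threshold. A call of lower in recovered over S961 was made under 5 of the 16 other ways of processing, with values of −0.45 to −0.09 over all 16. Recovered was the lowest library, at −0.20 (−0.27 to −0.12) against control.

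Txnrd1, the selenoprotein that reduces thioredoxin in the cytosol (ENSMUSG00000020250.10, chromosome 10, 82833951 to 82897712, plus strand), stood at 149 CPM in recovered (3330 UMIs), 203 CPM in S961 (4083 UMIs) and 128 CPM in control (2873 UMIs). The Poisson intervals of the 3 libraries, 144 to 155 CPM in recovered, 197 to 209 CPM in S961 and 123 to 132 CPM in control, did not overlap. The log2 ratio was 0.67 (0.60 to 0.74) for S961 over control and −0.44 (−0.51 to −0.37) for recovered over S961. Recovered lay above control by 0.23 (0.15 to 0.30), short of the threshold. In beta-like cells thinned to 5000 UMIs, Txnrd1 was seen in 50.6% of recovered, 59.3% of S961 and 44.3% of control cells, against 71.1%, 87.0% and 56.9% unthinned. Among cells with 4 to 7% mitochondrial UMIs it stood at 156 CPM in recovered, 209 CPM in S961 and 125 CPM in control, the same order as in all beta-like cells.

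Srxn1, which restores over-oxidised peroxiredoxins, stood at 70.0 CPM in recovered, 77.1 CPM in S961 and 67.6 CPM in control beta-like cells. The log2 ratio for S961 over control was 0.19 (0.09 to 0.29), in the direction of Txnrd1 but within the threshold. Among 16 other ways of processing it passed the threshold, at 0.34, only when the mean of each cell's CPM was used in place of the summed UMIs.

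Hmox1, which breaks down heme and is also held down by the repressor BACH1, stood at 136 CPM in recovered, 122 CPM in S961 and 139 CPM in control beta-like cells. Its log2 ratio for S961 over control was −0.18 (−0.26 to −0.10). This pooled value joined clusters of beta-like cells that differed widely. Thinned to 5000 UMIs, Hmox1 was seen in 27.7% of recovered, 25.9% of S961 and 28.0% of control beta-like cells, against 40.0%, 51.2% and 36.1% unthinned. Of alpha-like cells, the lowest in Hmox1 of the 5 largest classes, 5.6% of recovered, 11.2% of S961 and 9.38% of control cells had a UMI at the same depth.

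The tenth of beta-like cells with the most Hmox1 held 71.3% of its UMIs in recovered, 70.4% in S961 and 72.6% in control. Such a share is also high for any gene seen in few cells, and it was not set beside that of other genes. The variance over mean of Hmox1 was 6.87 in recovered, 4.40 in S961 and 6.94 in control, while 90% of all genes with a mean of at least 0.1 UMI per cell lay below 1.17, 1.23 and 1.16. The other 9 genes lay between 0.94 and 1.63. By its variance over mean, Hmox1 RNA was thus spread less evenly over beta-like cells than that of the other 9 genes in every library.

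**Figure D2:**
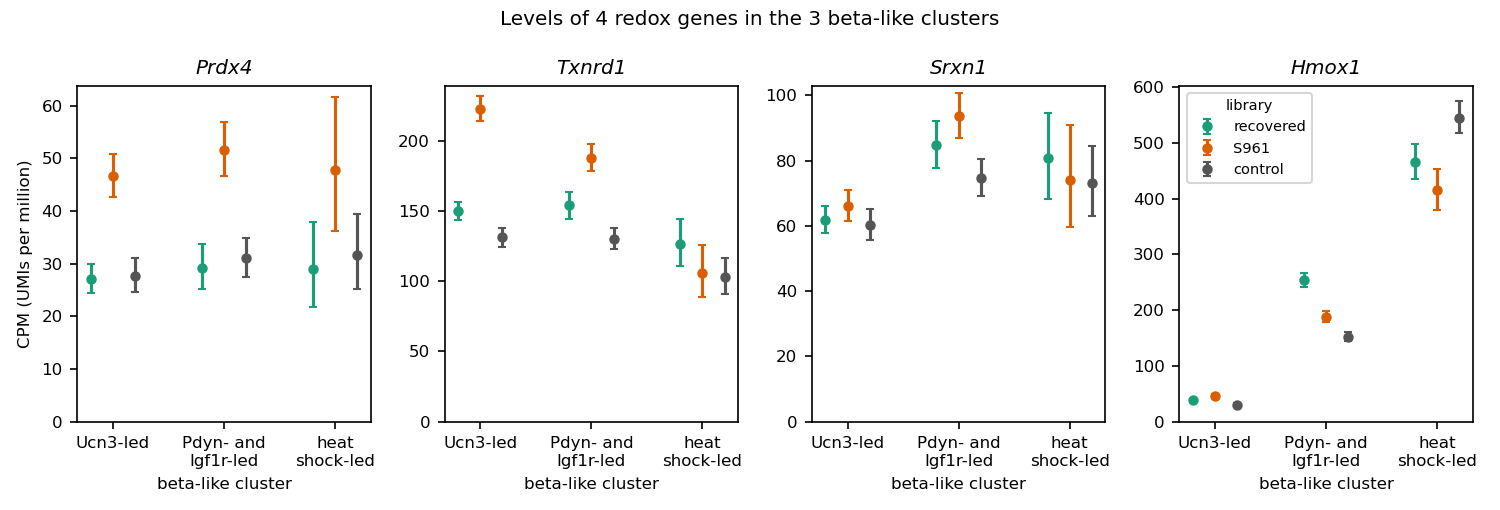
Levels of Prdx4, Txnrd1, Srxn1 and Hmox1, in CPM (vertical axes, starting at 0), in the 3 clusters of beta-like cells, for the recovered, S961 and control libraries from left to right within each cluster; bars are exact Poisson 95% intervals. Hmox1 rises across the clusters to between 415 and 546 CPM in the one led by heat shock genes, and Prdx4 is highest in S961 in all 3 clusters.

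Beta-like cells fell into 3 clusters, led by Ucn3, by Pdyn and Igf1r, and by heat shock genes such as Hspa1b and Hspa1a. The clusters were made from the same cells and genes, Hmox1 included, so their levels are a description. In the cluster led by Ucn3, Hmox1 stood at 38.1 CPM in recovered, 45.6 CPM in S961 and 29.7 CPM in control. In the cluster led by Pdyn and Igf1r it stood at 253 CPM in recovered, 188 CPM in S961 and 152 CPM in control. In the cluster led by heat shock genes it stood at 467 CPM in recovered (217 cells), 415 CPM in S961 (80 cells) and 546 CPM in control (421 cells). The log2 ratio for S961 over control was 0.62 in the first of these, 0.31 in the second and −0.40 in the third. The pooled value has the sign of the third cluster alone. That cluster, the highest in Hmox1, held 80 of 1128 S961 and 421 of 2884 control beta-like cells. What this difference in shares adds to the pooled value was not tested.

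Prdx4 was higher in S961 than in control in all 3 clusters, with log2 ratios of 0.75 in the cluster led by Ucn3, 0.73 in that led by Pdyn and Igf1r and 0.59 in that led by heat shock genes. Txnrd1 differed more between them. It stood at 150.2 CPM in recovered, 223 CPM in S961 and 131 CPM in control cells of the Ucn3 cluster, and at 127 CPM in recovered, 106 CPM in S961 and 103 CPM in control cells of the heat shock cluster. The log2 ratio for S961 over control was 0.77 (0.67 to 0.86) in the first and 0.04 (−0.28 to 0.35) in the second, and the difference between clusters was not tested.

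An insulin-rich cluster led by Dapl1 held 48 recovered, 469 S961 and 64 control cells. It was left unnamed because an alpha marker, Ttr, and no beta marker was among its 10 leading genes. The clusters led by Pdyn and by heat shock genes, named beta-like, had no beta marker there either. In the Dapl1-led cluster the summed beta markers stood at 1.57-fold those of all other cells, and the alpha markers at 0.19-fold. The beta markers stood at 1.52-fold in the cluster led by Ucn3, 1.29-fold in that led by Pdyn and 1.17-fold in that led by heat shock genes. By these sums the Dapl1-led cluster was not lower in beta markers than the clusters named beta-like, and Ins1, Iapp and Ins2 came further down its leading genes. The Dapl1-led cluster had a median of 3115 UMIs and 2.0% mitochondrial UMIs. Prdx4 there stood at 0 CPM in recovered, where 3 UMIs would be 13.7 CPM, at 59.1 CPM in S961 (144 UMIs) and at 34.2 CPM in control (9 UMIs). Txnrd1 stood at 82.1 CPM in recovered, 144 CPM in S961 and 76.0 CPM in control. A further insulin-rich cluster, led by the pseudogene Ftl1-ps1, held little RNA of several of these genes. Prdx6 stood there at 15.3 CPM in recovered, 9.96 CPM in S961 and 15.8 CPM in control, Txnrd1 at 18.6, 20.6 and 18.6 CPM, and Txn1 at 466, 554 and 448 CPM. Both clusters stayed out of the beta-like values.

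**Figure D3:**
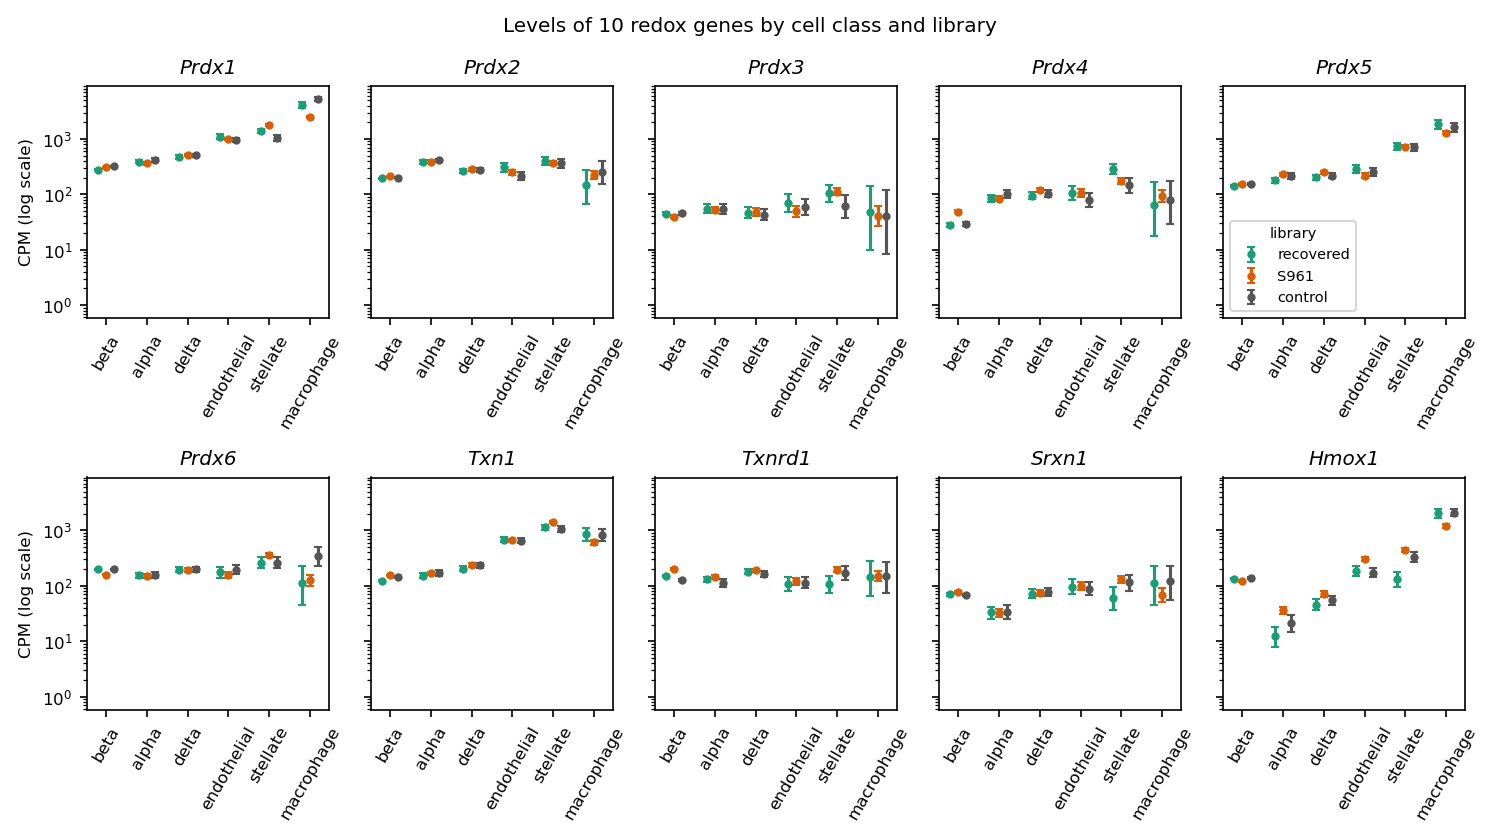
Levels of the 10 genes in CPM (vertical axes, log scale) by cell class, with the recovered, S961 and control libraries from left to right within each class; bars are exact Poisson 95% intervals. Of the 5 largest classes Txn1 is highest in stellate-like cells, at 1143, 1439 and 1056 CPM, and Hmox1 spans from 12.4 to 2108 CPM across the classes drawn.

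Across the 5 largest classes (beta, alpha, delta, endothelial and stellate), beta-like cells held the lowest Prdx1, Prdx2, Prdx4, Prdx5 and Txn1 in every library by CPM. Insulin made up 31.2% of the UMIs of beta-like cells in recovered, 32.6% in S961 and 30.7% in control, so the order was read again with totals that leave out hormone and mitochondrial genes, an alternative chosen after seeing the data. Beta-like cells were then still the lowest for Prdx4 in all libraries and for Prdx1 and Txn1 in recovered and control. In S961 alpha-like cells were lowest for Prdx1 and Txn1, Prdx2 was lowest in endothelial-like cells in all libraries, and Prdx5 was lowest in beta-like cells in recovered and in endothelial-like cells in S961 and control.

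Every order that follows is among these 5 classes alone, and the smaller classes, of at most 148 cells in a library, could lie beyond them. Prdx1 was highest of the 5 in stellate-like cells, the fibroblast-like cells of the islet, with both kinds of total. By CPM it stood there at 1399 in recovered, 1794 in S961 and 1033 in control, against 279.9, 309 and 320.3 in beta-like cells. The order of Prdx1 by CPM ran from stellate-like through endothelial-like, delta-like and alpha-like to beta-like in all libraries, and among neighbours only the stellate-like and endothelial-like intervals of control overlapped. Macrophage-like cells held more Prdx1 than any of the 5, at 4141 CPM in recovered, 2476 CPM in S961 and 5276 CPM in control. Ductal-like cells (19, 18 and 7 cells) held 4341, 1766 and 1821 CPM.

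Txn1 followed the same order by CPM, with 1143 CPM in stellate-like, 686 CPM in endothelial-like, 205 CPM in delta-like and 153 CPM in alpha-like cells of the recovered library. In S961 it stood at 1439, 667, 237 and 169 CPM in those classes, and in control at 1056, 652, 235 and 171 CPM. Neighbours in the order had separate intervals in all libraries, other than alpha-like and beta-like cells in S961. Prdx5 was also highest of the 5 in stellate-like cells with both kinds of total, at 735 CPM in recovered, 725 CPM in S961 and 704 CPM in control, while macrophage-like cells held 1853, 1296 and 1624 CPM. Of the 5, Prdx4 was highest there too, likewise with both, at 288 CPM in recovered, 176 CPM in S961 and 145 CPM in control, and lowest in beta-like cells, whose intervals stood apart from those of the next class in every library.

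Of the 5 classes, Prdx2 was highest in alpha-like cells in S961, at 391 CPM, and in control, at 409 CPM, and in stellate-like cells in recovered, at 399 CPM, but alpha-like and stellate-like intervals overlapped in all libraries. With totals without hormone and mitochondrial genes it was highest in alpha-like cells in all libraries. The 18 ductal-like cells of S961 stood above them, at 543 CPM. Prdx3 ranged from 39.8 to 112 CPM over the 5 classes and the 3 libraries, and just 1 pair of neighbours, stellate-like and alpha-like cells in S961, had separate intervals. Prdx6 by CPM was highest of the 5 in stellate-like cells, at 263 in recovered, 359 in S961 and 263 in control, with the other 4 classes between 149 and 199 CPM. With totals without hormone and mitochondrial genes, beta-like cells were highest for Prdx6 in recovered and control.

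Txnrd1 had no fixed order among the 5. By CPM it was highest in beta-like cells in S961, at 203 CPM, in delta-like cells in recovered, at 181 CPM, and in stellate-like cells in control, at 171 CPM. The S961 beta-like interval overlapped that of stellate-like cells, at 197 CPM. With totals without hormone and mitochondrial genes, Txnrd1 was highest in beta-like cells in recovered and S961 and in delta-like cells in control. Srxn1 was lowest of the 5 in alpha-like cells in all libraries with both kinds of total, at 33.2 CPM in recovered, 32.1 CPM in S961 and 33.7 CPM in control, with overlapping intervals. T-like or NK-like cells held less in recovered, at 20.2 CPM (148 cells), and in S961, at 5.19 CPM (34 cells).

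Of the 10 genes, Hmox1 had the widest range over the 5 largest classes by CPM in each library, from 12.4- to 15.5-fold. Macrophage-like cells held 2046 CPM in recovered (18 cells), 1196 CPM in S961 (81 cells) and 2108 CPM in control (22 cells). Alpha-like cells held the least of the 5 largest classes with both kinds of total, 12.4 CPM in recovered (25 UMIs), 36.1 CPM in S961 (179 UMIs) and 21.4 CPM in control (33 UMIs). Ductal-like cells held 8.31 CPM in recovered and 32.1 CPM in S961, and T-like or NK-like cells 10.1 and 5.19 CPM, so alpha-like cells were not the lowest of all classes. Macrophages take up heme from red cells, and Hmox1 is known to be high in them.

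**Figure D4:**
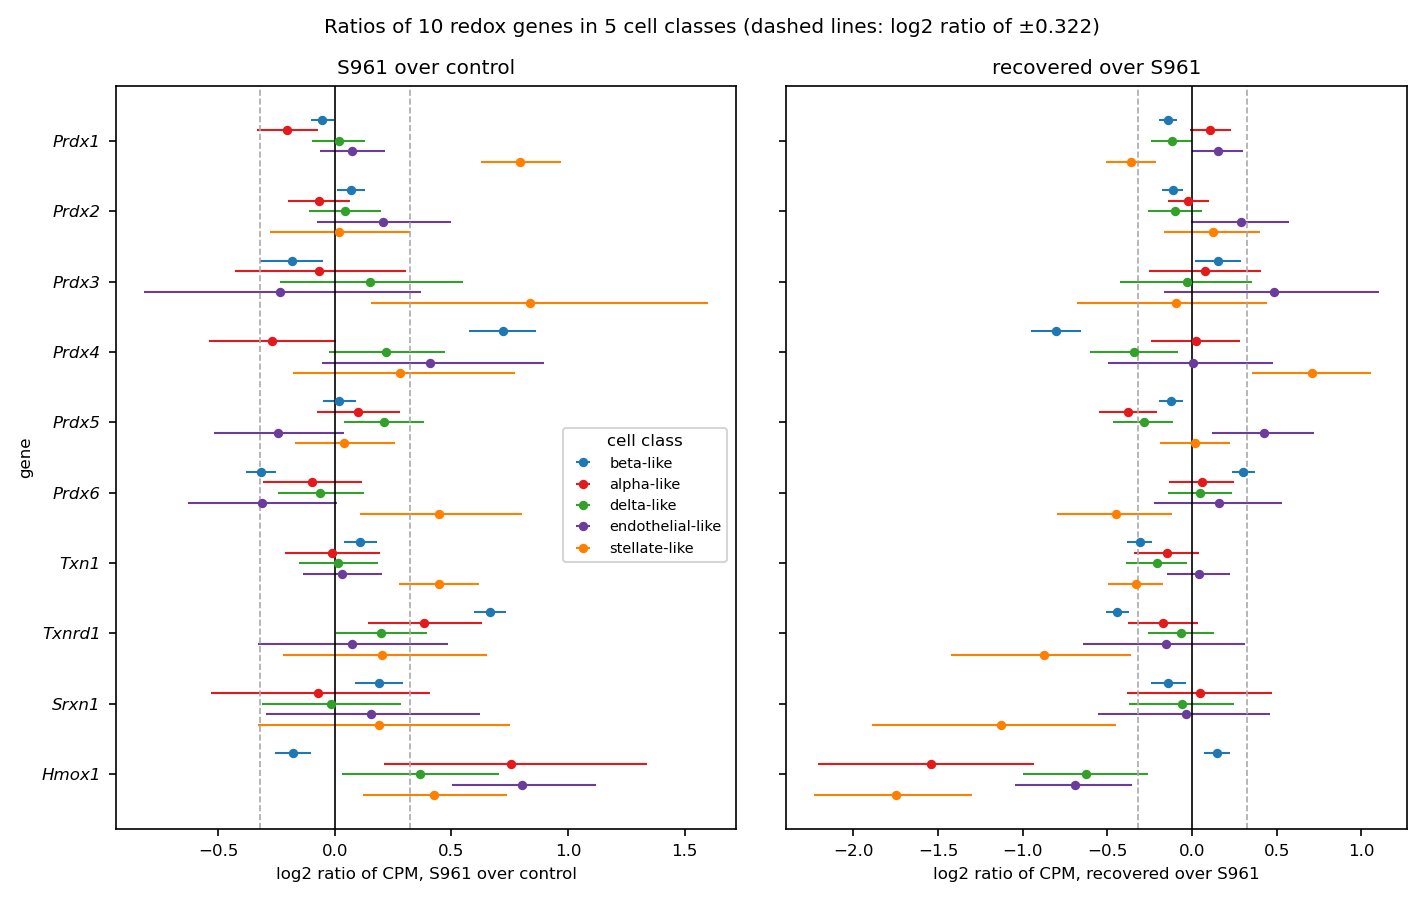
Log2 ratios of CPM (horizontal axes) for S961 over control, left, and recovered over S961, right, for the 10 genes in 5 cell classes; bars are exact conditional binomial 95% intervals, and dashed lines mark a log2 ratio of 0.322 in size. Prdx4 and Txnrd1 of beta-like cells lie past them in both panels, and Hmox1 lies at 0.81 in endothelial-like and −0.18 in beta-like cells for S961 over control.

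In the other classes Hmox1 was the gene most often called. In endothelial-like cells it stood at 188 CPM in recovered (83 UMIs), 304 CPM in S961 (473 UMIs) and 174 CPM in control (109 UMIs), with S961 the high library. The log2 ratio was 0.81 (0.50 to 1.12) for S961 over control and −0.69 (−1.05 to −0.35) for recovered over S961. The second gene called higher in S961 over control in endothelial-like cells was Prdx4, at 0.41 with an interval of −0.05 to 0.90 that holds 0, and its call was kept under 9 of 12 other ways of processing. These are 2 of 10 higher, beside 25.7% of all genes, and 0 lower, beside 11.6%. In recovered over S961, Prdx3 (0.49) and Prdx5 (0.42) were higher, 2 of 10 beside 16.2% of all genes, and Hmox1 was the 1 lower, beside 18.6%. In recovered over control, Prdx2 (0.49) and Prdx4 (0.42, kept under 6 of 10) were higher, beside 23.1% of all genes, and 0 were lower, beside 11.9%.

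The alpha-like class also holds cells of another hormone. Gcg and Ppy, the pancreatic polypeptide gene, were its 2 leading genes, and at a finer clustering 282 of its cells (69 recovered, 118 S961 and 95 control) fell into a cluster led by Ppy.

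In alpha-like cells, Txnrd1 was higher in S961 than in control by 0.38 (0.14 to 0.63), at 147 CPM in S961 and 112 CPM in control, and recovered stood at 130.3 CPM. The ratio was 0.05 when cells were thinned to 2000 UMIs. Hmox1 was higher in S961 than in control by 0.75 (0.21 to 1.34) and lower in recovered than in S961 by a log2 ratio of −1.54 (−2.21 to −0.94). These 2 of 10 stood beside 20.4% of all genes higher in S961 over control, and 0 were lower, beside 7.58%. In recovered over S961, Prdx5 (−0.38; −0.31 and not called without the Ppy-led cells) and Hmox1 were lower, beside 14.4% of all genes, and 0 were higher, beside 11%. In recovered over control, Hmox1 alone was lower (−0.79, interval −1.60 to 0.00), beside 9.64% of all genes, and 0 were higher, beside 17.0%. Without the Ppy-led cells, an alternative chosen after seeing the data, S961 over control gave 0.48 for Txnrd1 and 0.79 for Hmox1. Prdx1 (−0.40, against −0.20 in the whole class), Prdx4 (−0.44, against −0.27) and Srxn1 (−0.38, against −0.07) were then past the threshold as lower in S961. Txnrd1 (0.36) was then also past it as higher, and Prdx4 (−0.36) as lower, in recovered over control. Leaving out the Ppy-led cells was not the only alternative that called Prdx4 lower in S961 over control. It was not called under 8 of 14 other ways of processing and was called lower under the rest, with values of −0.44 to −0.08. In recovered over control Prdx4 was not called under 11 of 14.

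Insulin RNA outside beta-like cells differed between the libraries, and S961 had the least of it and the most Hmox1 in both alpha-like and delta-like cells. It made up 1.87% of the UMIs of alpha-like cells in recovered, 1.05% in S961 and 3.43% in control, and 7.87%, 0.949% and 7.73% of those of delta-like cells. Hmox1 is higher in beta-like than in alpha-like cells. When beta-cell RNA was subtracted by its insulin, Hmox1 in alpha-like cells gave 2.32 for S961 over control, and among cells with 4 to 7% mitochondrial UMIs it gave −0.13.

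In delta-like cells, Hmox1 stood at 45.9 CPM in recovered, 70.8 CPM in S961 and 55.0 CPM in control. It was higher in S961 than in control by 0.36 (0.03 to 0.71), 1 of 10 beside 23.8% of all genes, and 0 were lower, beside 8.55%. That call was lost under 7 of 13 other ways of processing, with values of −0.06 to 1.37. In recovered over S961, Hmox1 (−0.62) and Prdx4 (−0.34, kept under 5 of 13 other ways) were lower, beside 19.5% of all genes, and 0 were higher, beside 8.84%. The call for Hmox1 was kept under all 13, with values of −2.15 to −0.32. In recovered over control, 0 were higher, beside 13.9%, and 0 lower, beside 10.4%.

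Stellate-like cells numbered 51 in recovered, 205 in S961 and 94 in control, and the median log2 ratio of all genes for S961 over control was 0.21 there. Their insulin share was 2.79% in recovered, 1.38% in S961 and 10.4% in control. By that insulin, beta-cell RNA was estimated at 8.96% of their UMIs in recovered, 4.24% in S961 and 34.0% in control. Prdx1, Prdx3, Prdx6, Txn1 and Hmox1 were higher in S961 than in control, 5 of 10 beside 41.7% of all genes, and 0 were lower, beside 14.2%. Prdx1 was higher by 0.80 (0.63 to 0.97), at 1794 CPM in S961 and 1033 CPM in control, and was called under all 13 other ways of processing, with values of 0.40 to 1.20. The other calls were less stable: Hmox1 was kept under 5 of 13 (−1.81 to 0.43), Txn1 under 8 of 13 (−0.0039 to 1.19), Prdx6 under 10 of 13 (−0.03 to 0.77) and Prdx3 under 11 of 12 (0.17 to 0.92). With the estimated beta-cell RNA taken off, Prdx1 was still called, while Txn1 and Hmox1 were not. Among S961 stellate-like cells thinned to equal depth, the tenth with the most Hmox1 held 79.3% of its UMIs, a share that also depends on how many cells hold any. What those cells add to the ratio of 0.43 was not tested.

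In recovered over S961, Prdx4 was higher in stellate-like cells, by 0.71 (0.36 to 1.05), 1 of 10 beside 18.4% of all genes. Prdx1, Prdx6, Txn1, Txnrd1, Srxn1 and Hmox1 were lower, 6 of 10 beside 37.0%. The calls of Prdx4, Txnrd1, Srxn1 and Hmox1 were kept under every other way of processing that measured them, while that of Txn1 was kept under 6 of 13 (−1.32 to −0.01), that of Prdx1 under 9 of 13 (−0.82 to −0.16) and that of Prdx6 under 11 of 13 (−0.71 to 0.04). Hmox1 stood at 133 CPM in recovered (42 UMIs), 446 CPM in S961 (743 UMIs) and 332 CPM in control (101 UMIs), and its log2 ratio for recovered over S961 was −1.75 (−2.23 to −1.30). In recovered over control, Prdx1 (kept under 9 of 13), Prdx3 and Prdx4 were higher, beside 32.6% of all genes, and Txnrd1, Srxn1 and Hmox1 were lower, beside 19.2%. Srxn1 and Txnrd1 rested on 19 and 34 UMIs in recovered stellate-like cells. At a finer clustering, 13 recovered cells, with no S961 or control cell, formed a separate cluster led by Col3a1, a stellate or fibroblast marker. No alternative read the stellate-like class without that cluster, so its part in the recovered values was not tested.

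Further genes of the same pathways were read in beta-like cells from 5 lists with 71 names, of which 65 had at least 50 UMIs for S961 over control. Of these 65, 16 were higher in S961 than in control, beside 17.2% of all genes, and 7 lower, beside 9.72%, the shares beside which the counts of each list below also stand, with a median log2 ratio of 0.08, beside 0.02 over all genes. Named here are the highest and the lowest pair of each list among genes with at least 100 UMIs. In recovered over S961, 3 of 65 were higher, beside 10.3% of all genes, and 13 lower, beside 10.7%. For recovered over control the counts were 6 higher, beside 10.9%, and 6 lower, beside 4.33%.

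Among NRF2 and its regulators, 2 of 9 were higher in S961 than in control and 0 lower. They were the small MAF protein Maff, at 10.4 CPM in recovered, 18.8 CPM in S961 and 12.7 CPM in control (log2 ratio 0.57 for S961 over control), and Sqstm1, an autophagy adaptor that binds KEAP1, at 184, 229 and 172 CPM (0.41). The lowest were Mafk at −0.28 and Nfe2l1 at −0.13, both within the threshold. Nfe2l2 itself stood at 27.0 CPM in recovered, 29.3 CPM in S961 and 25.3 CPM in control.

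Of 21 other NRF2 targets measured, 7 were higher in S961 than in control and 1 lower, with a median of 0.17. Gstp1, a glutathione transferase, stood at 38.1 CPM in recovered, 66.4 CPM in S961 and 32.8 CPM in control (1.02). Ephx1, microsomal epoxide hydrolase, stood at 12.3 CPM in recovered, 18.0 CPM in S961 and 9.29 CPM in control (0.96). The lowest were the cystine importer subunit Slc7a11, at 9.91 CPM in recovered, 7.79 CPM in S961 and 10.4 CPM in control (−0.41), and Taldo1, at −0.11. The alpha and acinar markers in beta-like cells were also highest in S961, and their part in these values was not tested.

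Of 19 other thioredoxin and glutaredoxin genes, 3 were higher in S961 than in control and 2 lower. Txnip, which binds and inhibits thioredoxin, stood at 48.7 CPM in recovered, 63.8 CPM in S961 and 33.4 CPM in control (0.93). Sesn2, a stress-induced sestrin, stood at 59.7 CPM in recovered, 73.4 CPM in S961 and 49.8 CPM in control (0.56). The lower ones were Txn2, mitochondrial thioredoxin, at 62.2 CPM in recovered, 51.3 CPM in S961 and 67.0 CPM in control (−0.39), and the methionine sulfoxide reductase Msra (−0.39). The cytosolic reductase Txnrd1 was thus higher, while mitochondrial Txn2 was lower, and Txnrd2, the mitochondrial reductase, stood at 11.2, 11.5 and 10.6 CPM.

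Of 7 other enzymes of superoxide and hydrogen peroxide, 3 were higher in S961 than in control and 0 lower. Gpx3, secreted glutathione peroxidase, stood at 51.8 CPM in recovered, 238 CPM in S961 and 12.0 CPM in control (4.31, interval 4.14 to 4.50). Gpx2 stood at 94.5 CPM in recovered, 125 CPM in S961 and 64.1 CPM in control (0.96). The lowest were Gpx1 at −0.03 and Gpx4 at 0.10. Of 9 genes of oxidative folding in the endoplasmic reticulum, the compartment of Prdx4, 1 was higher and 4 were lower, with a median of −0.28. Qsox1, a sulfhydryl oxidase, was higher (0.69), and Vkorc1 stood at 0.21. Pdia6 stood at 523 CPM in recovered, 453 CPM in S961 and 676 CPM in control (−0.58), and Pdia4 at 91.4, 86.7 and 124 CPM (−0.52). Prdx4 and these protein disulfide isomerases therefore differed in opposite directions in S961 over control. The lower values of this list were not limited to the S961 library. In recovered over control, 0 of the 9 were higher, beside 10.9% of all genes, and 5 were lower, beside 4.33%. The median of the list was −0.32 there, while Prdx4 stood at −0.08.

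Over the 15 combinations of the 5 classes and 3 libraries, the likeness of 2 genes was measured by Pearson's r of log2(CPM + 1). This is a description, since the points share libraries and cells. Among the 10, Prdx1 and Txn1 were most alike (r = 0.99), and Txnrd1 had r = −0.18 with Prdx1. Genes outside the list were about as like them: Psmd8 (0.99) and Polr1d (0.98) for Prdx1, and Psmb5 and Ran (0.99 each) for Txn1. Of 5293 other genes ranked, the most like Prdx4 were Thoc7 and Tspo (0.94 each), the most like Txnrd1 were Lpgat1 (0.83) and Fam122a (0.79), the most like Srxn1 were Nars (0.96) and Tars (0.95), and the most like Hmox1 were Avpi1 and Hspa9 (0.95 each).

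**Figure D5:**
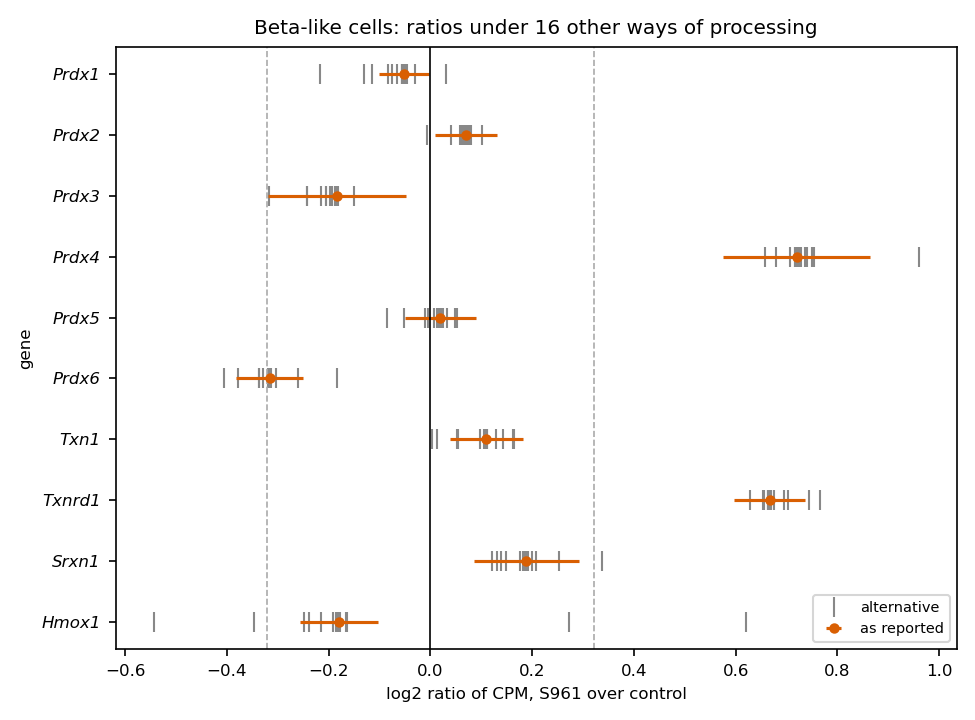
Log2 ratios of CPM for S961 over control in beta-like cells (horizontal axis) for the 10 genes; orange points are the values reported with their exact 95% intervals, grey ticks are 16 other ways of processing, and dashed lines mark a log2 ratio of 0.322 in size. Prdx4 (0.66 to 0.96) and Txnrd1 (0.63 to 0.77) stay past them throughout, and Hmox1 spreads from −0.54 to 0.62.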

How the data were processed

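The deposited values are counts of UMIs per gene and barcode, whole in every entry, with no barcode under 500 UMIs. Per the submitters' processing notes they came from Cell Ranger on mm10; no version is given in the sources used here. Barcodes were assigned to libraries by the suffix in the labels. Analysis kept cells in which 500 or more genes were detected and mitochondrial UMIs made up 20% or less, left out doublets called with Scrublet, and clustered the rest without integration (scanpy 1.11.5, leidenalg 0.10.2, 2000 variable genes, 30 components, 15 neighbours, resolution 0.5). Scrublet called 24 recovered, 77 S961 and 3 control cells, and how many doublets were missed was not tested. The beta-like class joins 3 clusters; only the one led by Ucn3 had a beta marker among its 10 leading genes. UMIs were summed by class and library and scaled to CPM. Intervals are exact (Poisson for CPM, conditional binomial for ratios, 95%). The ratio intervals were checked on simulated Poisson counts, the model they assume. That check does not cover spread between cells, which for Hmox1 was well above Poisson. Genes outside the list were named by rule: the 2 highest and 2 lowest of each list with at least 100 UMIs, and, for some of the listed genes, the 2 genes most like each with at least 20 CPM. Nfe2l2, Txnrd2 and genes that lead clusters fall outside it, and the first 2 were chosen after their values were seen. The genes and lists were chosen with earlier results of these data known. Alternatives covered filters on cells, clusters, depth, scaling, RNA from other classes and the minimum of UMIs. Changing the minimum of UMIs alters which genes are counted but not the ratio of a gene. Near copies were sought in the last 400 bases of GENCODE M21 transcripts. Python 3.11.15, numpy 2.4.6, scipy 1.17.1, pandas 2.3.3, scikit-learn 1.9.0 and, for figures, matplotlib 3.10.9 served for this.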

Additional observations from a re-analysis of the deposited data

Results flagged for a closer look

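Prdx4 moved in opposite directions between cell classes in recovered over S961. Its log2 ratio was −0.80 in beta-like cells and −0.34 in delta-like cells, and 0.71 in stellate-like cells, with counting intervals that exclude 0 in each. Prdx5 was lower in alpha-like cells, at −0.38, and higher in endothelial-like cells, at 0.42, in the same comparison. With 1 library for each group, the differences between classes were not tested. The stellate-like value of Prdx4 rests on 91 recovered and 293 S961 UMIs, and it was kept under 13 of 13 other ways of processing. None of these left out the Col3a1-led cluster of finer clustering, whose cells all came from the recovered library. The alpha-like value of Prdx5 was not called without the Ppy-led cells of that class (−0.31). The delta-like value of Prdx4 was kept under 5 of 13, and the endothelial-like value of Prdx5 under 12 of 13.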

How the results depend on the processing

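In beta-like cells the calls of Prdx4 and Txnrd1 kept their direction and side of the threshold under all 16 alternatives, of which those on clusters and shared barcodes (adding the Dapl1-led cluster, the Ucn3-led cluster alone, leaving out barcodes found in 2 libraries) were added after seeing the data. The alternatives with at least 200 UMIs and with no minimum of UMIs repeat the reported ratio of a single gene. They could not change its call, and they are included in the counts of alternatives given for single genes. Recovered over S961 gave −1.07 to −0.48 for Prdx4 and −0.57 to −0.40 for Txnrd1. Genes of the 10 lower in S961 over control, 0 as reported, were 1 (Prdx6) with stricter cell filters, without the heat shock cluster, in the Ucn3-led cluster alone and with median-of-ratios scaling, 1 (Hmox1) with cells thinned to 2000 UMIs, and 2 (both) among cells with 4 to 7% mitochondrial UMIs. Genes higher in recovered over S961, 0 as reported, were 1 (Prdx6) with stricter filters, without the heat shock cluster, in the Ucn3-led cluster alone and with totals without insulin and mitochondrial genes, and 2 (Prdx6 and Hmox1) at 4 to 7%. Genes lower in recovered over S961, 2 as reported, were 3 (Txn1 added) under 5 alternatives. Genes higher in recovered over control, 0 as reported, were 1 at 4 to 7% (Txnrd1) and 1 in the Ucn3-led cluster alone (Hmox1). Pathway genes lower in S961 over control were 7 as reported and 11 with the Dapl1-led cluster. The order of classes was also read with totals without hormone and mitochondrial genes, likewise added after seeing the data. Alpha-like cells were also read without their Ppy-led cells, added after seeing the data too. Of 2000 single-gene values over the 5 classes and the alternatives, 174 differed in sign from the value reported. Of these, 165 were of values not called as reported, and 15 of the 165 passed the threshold in the other direction, among them Hmox1 in beta-like cells for S961 over control (0.62, the Ucn3-led cluster alone) and Srxn1 in stellate-like cells (−0.59, 4 to 7%). The other 9 were of called values. Of the called values for S961 over control, those that changed sign were Hmox1 in alpha-like cells (−0.13, 4 to 7% mitochondrial UMIs), Hmox1 in delta-like cells (−0.060, no filter on cells), Prdx6 in stellate-like cells (−0.034, mean of each cell's CPM), Txn1 in stellate-like cells (−0.0039, RNA of other classes taken off) and Hmox1 in stellate-like cells (−0.38 with stricter filters and −1.81 at 4 to 7%). Of the called values for recovered over S961 they were Prdx4 in delta-like cells (0.21, thinned), Prdx5 in endothelial-like cells (−0.36, 4 to 7%) and Prdx6 in stellate-like cells (0.036, thinned). The causes were not tested. No paired analysis was possible because each group is 1 library, and for the same reason no replicate could be left out. Depth limits the stellate-like and endothelial-like values most, where some genes held under 50 UMIs in a library.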
